A study of Homo sapiens with 4 samples.

Results

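The NRF2 programme was followed through 31 genes, chosen by name, as NRF2-related genes that are high in A549, from the 58812 genes of the deposited tables: the transcription factor gene NFE2L2, which encodes NRF2, its inhibitor gene KEAP1, its partner gene MAFG, and 28 target genes, mostly of antioxidant, pentose phosphate and detoxifying enzymes and transporters. All 31 had a unique Ensembl identifier in the tables and all 31 passed the filter on low counts, with between 334 and 198224 counts per library. RNA was from A549, a human line of epithelial origin derived from a lung carcinoma. The cells received 1 µg of a plasmid for 24 hr, either one that encodes SAMD9 with a Myc-DDK tag (SAMD9, 2 libraries) or pCMV6-Entry, the CMV-promoter plasmid without an insert (empty vector, 2 libraries). Whether replicates came from separate cultures is not in the labels, and p-values therefore reflect the spread among these 4 libraries alone, which may be technical. In such bulk RNA, a change in fewer cells and a smaller change in every cell cannot be told apart. Nor do they say what share of the cells took up the plasmid.

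NRF2 is a transcription factor that is held at a low level by KEAP1, an adaptor that hands it to the CUL3 ubiquitin ligase for degradation. When KEAP1 is modified by electrophiles or inactivated by mutation, NRF2 accumulates, pairs with a small MAF protein such as MAFG and binds antioxidant response elements near its targets. A549 is a much used example of a KEAP1-mutant line in which the programme runs without a stimulus. Gene counts do not read the KEAP1 mutation, and no line with intact KEAP1 was part of the comparison.

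The core of the antioxidant response element, TGACNNNGC on either strand, was searched in RefSeq promoter windows (GRCh38.p14, 250 bases before to 50 after each gene start). A window was found for 25 of the 31 genes, and 9 of these 25 (36.0%) held the core in at least 1 of their windows, against 16.1% of 27305 genes with windows of the same length. By window, the shares were 31.2% of 32 windows of the programme and 13.3% of 35116 windows in all. The stricter TGACTCAGC was in 2 of the 25 genes, ME1 and PIR, and in 0.689% of all genes. ME1 also held another match to the core, 11 bases after the start and on the other strand, which is not among the stretches below. A match is a string of letters and not a site shown to bind NRF2, and distal elements lie outside these windows. The following stretches show the core, in capitals, for the 6 genes that hold it and had the lowest p in the comparison between SAMD9 and empty vector. They are 5′ to 3′ on the strand of the gene, and in CBR1, PGD, GPX2 and GCLM the core reads on the other strand. The start is that of the RefSeq window, and a gene can have several windows. For EPHX1, PGD and GPX2 the stretch lies wholly inside the listed span of the gene, after its outermost start.
CBR1, chr21:36069855-36069883, plus strand, 159 bases before the start: tgcgggttctGCAAAGTCAggctagctgg
PGD, chr1:10398853-10398881, plus strand, 201 bases before the start: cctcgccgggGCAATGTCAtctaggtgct
EPHX1, chr1:225825266-225825294, plus strand, 78 bases before the start: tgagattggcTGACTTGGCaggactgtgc
GPX2, chr14:64942849-64942877, minus strand, 122 bases before the start: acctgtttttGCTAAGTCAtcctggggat
ME1, chr6:83431170-83431198, minus strand, 137 bases before the start: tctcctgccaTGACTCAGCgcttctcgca
GCLM, chr1:93909446-93909474, minus strand, 34 bases before the start: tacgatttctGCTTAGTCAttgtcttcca
Of the 9 genes with the core, 1 (CBR1) was called higher with SAMD9 and 0 were called lower, and of the 16 with a window and no core 3 were called higher and 3 lower, where 15.3% of all genes tested were called higher and 12.2% lower. Counts this small do not set the genes with the core apart. How calls were made is given with the changes below.

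The overexpressed gene checked the labels: SAMD9 had 809 and 875 RPKM in the SAMD9 libraries, against 2.21 and 1.86 RPKM in the empty vector libraries (RPKM is CPM, the count scaled to library totals, per kilobase of listed gene length). Library totals ranged from 29301854 to 39670083 counts. The epithelial label was checked with 10 markers, of which 7 had at least 1 RPKM in every library, led by KRT8, KRT18 and KRT7. KRT19 and CLDN7, also on that list, were at or below 0.146 RPKM. Summed levels were 1779 and 1711 RPKM with SAMD9 and 1585 and 1786 RPKM with empty vector. With SAMD9, 4 of the 8 testable epithelial markers were called higher and 0 lower, where 15.3% of all genes tested were called higher and 12.2% lower. Markers of other cell types summed to 0.706 and 0.703 RPKM with SAMD9 and 0.234 and 0.425 RPKM with empty vector for 8 fibroblast genes (1 of 2 testable called higher), to between 1.26 and 1.85 RPKM over the 4 libraries for 7 leukocyte genes and to between 0.224 and 0.382 RPKM for 6 endothelial genes. CD14 made up most of the leukocyte sum, at 1.32 and 1.03 RPKM with SAMD9 and 1.59 and 1.13 RPKM with empty vector, and was not called, while the leukocyte gene PTPRC was at or below 0.0117 RPKM. The fibroblast gene called higher was COL1A1, at 0.498 and 0.53 RPKM with SAMD9 and 0.156 and 0.227 RPKM with empty vector (log2 fold change 1.6, SE 0.25, edgeR adjusted p = 3.6e-05), and the fibroblast gene DCN was at 0 in all 4 libraries. The part of these markers in the changes of the 31 genes was not tested.

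Since a high level in A549 was part of the choice, their high level, in both groups, is given as a description. The 31 genes had a median level of 81.4 and 86.9 RPKM in the SAMD9 libraries and of 87.6 and 93.4 RPKM in the empty vector libraries, whereas the median gene with at least 1 count had between 0.819 and 0.975 RPKM. Their median percentile among genes with a count was 98.4 and 98.5 with SAMD9 and 98.6 and 98.7 with empty vector. In the SAMD9 libraries 28 and 28 of the 31 genes, and in the empty vector libraries 28 and 29, lay at or above the 90th percentile. Together they took 1.85% and 1.83% of all counts with SAMD9 and 2.02% and 2.08% with empty vector. A gene's listed length covers exons of every annotated transcript, so RPKM understates a gene with long unused exons. RPKM and shares of counts rest on library totals, under which the median gene read -0.19 (log2, SAMD9 over empty vector). Differences between the groups in these levels, and in those of single genes that follow, include that shift.

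**Figure D1:**
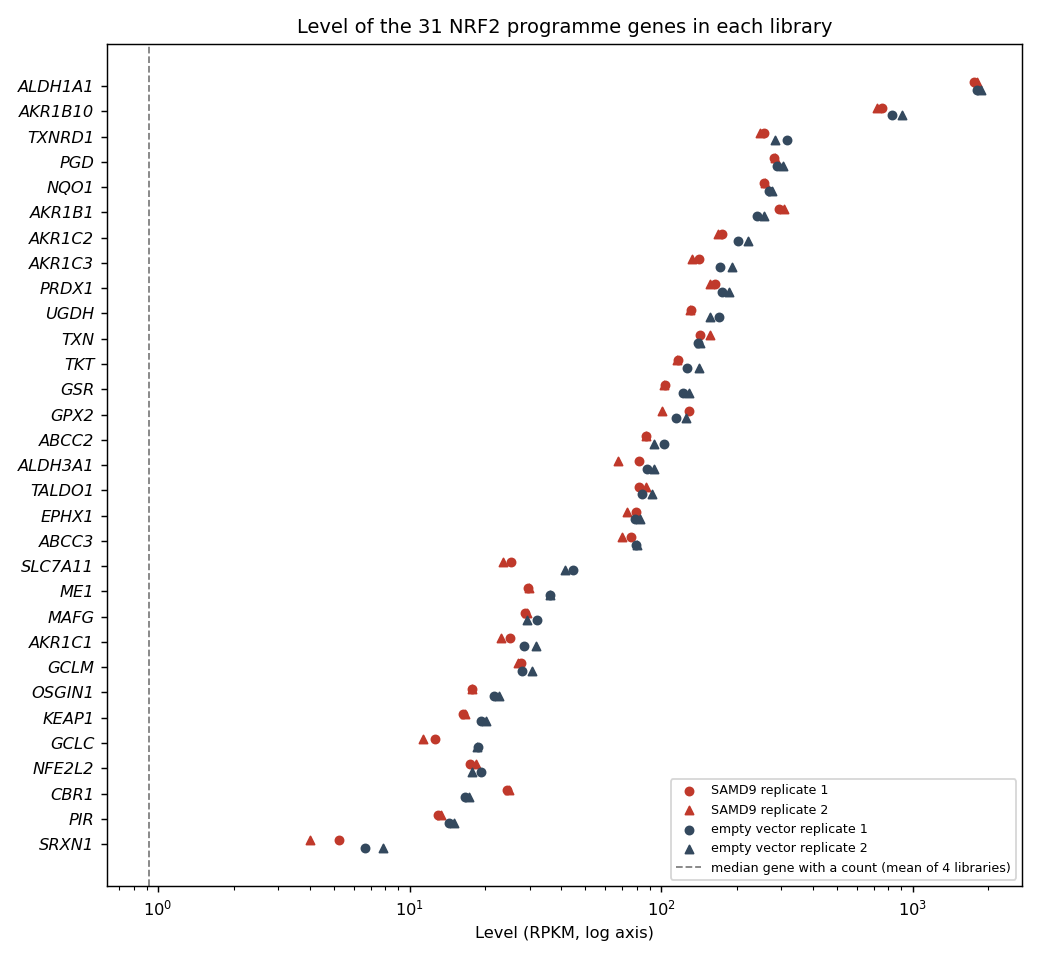
Level of each of the 31 genes in each library, in RPKM on a log axis; red symbols are SAMD9 and dark symbols empty vector, with circles for replicate 1 and triangles for replicate 2. ALDH1A1 lies highest, at 1754 to 1865 RPKM over the 4 libraries, and SRXN1 lowest, at 4.03 to 7.81 RPKM, and all 31 genes lie to the right of the dashed line, the median gene with a count.

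ALDH1A1, the cytosolic retinaldehyde dehydrogenase gene, was the most abundant member, with 1754 and 1796 RPKM with SAMD9 and 1805 and 1865 RPKM with empty vector. It alone took 0.5% and 0.512% of the counts of the SAMD9 libraries and 0.514% and 0.531% of those of the empty vector libraries. AKR1B10, an aldo-keto reductase that reduces retinal and other aldehydes, followed at 754 and 719 RPKM with SAMD9 and 829.7 and 909.6 RPKM with empty vector. NQO1, the quinone reductase that is the usual marker of NRF2 activity, had 257 and 258 RPKM with SAMD9 and 269 and 276 RPKM with empty vector. The regulators lay lower: NFE2L2 averaged 17.8 ± 0.739 RPKM with SAMD9 and 18.5 ± 1.05 RPKM with empty vector (SD, n = 2 each). KEAP1 averaged 16.5 ± 0.195 RPKM with SAMD9 and 19.7 ± 0.552 RPKM with empty vector (SD, n = 2 each). At the bottom was SRXN1, which encodes sulfiredoxin, at 5.26 and 4.03 RPKM with SAMD9 and 6.64 and 7.81 RPKM with empty vector. SRXN1 shares 2292 exonic bases, and 84.9% of its 31-mers, with another gene listed on the same strand (ENSG00000270299), which had 8 to 17 counts per library, so its level is uncertain where shared reads were set aside. AKR1C1 and AKR1C2, neighbouring genes for hydroxysteroid dehydrogenases on chromosome 10, have 35.1% and 47.3% of their 31-mers in common with the other of the pair, which makes the split of counts between them uncertain. AKR1C1 had 25.0 and 23.1 RPKM with SAMD9 and 28.6 and 31.8 RPKM with empty vector. AKR1C2 had 175 and 169 RPKM with SAMD9 and 203 and 222 RPKM with empty vector.

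With SAMD9, the programme had no common direction. Of the 31 genes, 4 were called higher (CBR1, AKR1B1, TXN and ALDH1A1), 4 were called lower (SLC7A11, GCLC, SRXN1 and AKR1C3) and 23 were not called. A call means a Benjamini-Hochberg adjusted p below 0.05 in edgeR's quasi-likelihood test over 19814 genes with trimmed mean of M-values (TMM) normalisation. The share called was 12.9% of the members in each direction, against 15.3% of all genes called higher and 12.2% called lower. No member reached an absolute log2 change of 1. The median log2 fold change was 0.02 over the members and -0.01 over all genes tested. Both SAMD9 libraries lay above both empty vector libraries for 11 members and below both for 11, where 31.1% and 30.9% of all genes did so. With 2 libraries a group, the smallest two-sided p of an exact permutation test on one gene is 0.333, so the calls rest on the spread that edgeR shares across genes.

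The direction of small changes depended on the scaling. Dividing by library totals in place of TMM moved the median of all genes to -0.19 on the log2 scale. Of the members, 2 were then called higher (CBR1 and AKR1B1) and 17 lower, against 9.96% of all genes called higher and 28.5% called lower. Upper quartile scaling called 3 members higher and 9 lower, and of all genes 2506 higher and 3258 lower, where TMM called 3038 higher and 2420 lower. The member median was -0.17 under library totals and again 0.02 above the median gene. SLC7A11 and GCLC were called lower, and CBR1 and AKR1B1 higher, in the fit reported and in all 10 alternatives. The calls of TXN, ALDH1A1, SRXN1 and AKR1C3 ended in at least 2 of the alternatives each. All values below are TMM-normalised CPM, that is, CPM with the library total multiplied by the TMM factor, unless another unit is named.

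**Figure D2:**
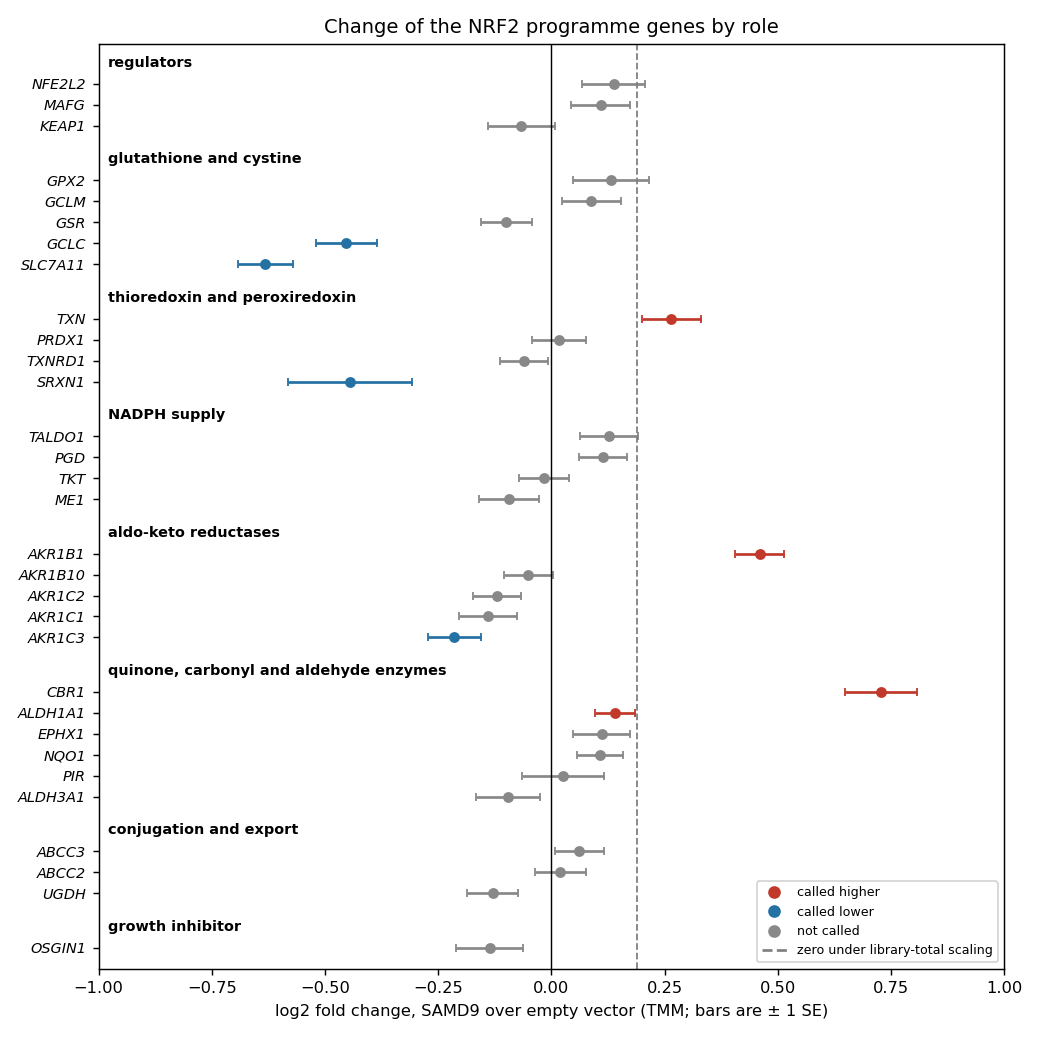
Log2 fold change of each of the 31 genes, SAMD9 over empty vector, by role; points are edgeR estimates after TMM, bars are ± 1 SE, and the dashed line is where a gene would read 0 under scaling by library totals. SLC7A11 at -0.63 and CBR1 at 0.73 are the ends of the range, and of the 23 grey points (not called) 12 lie above 0 and 11 below.

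None of the regulators was called. NFE2L2 (chromosome 2, 177227595 to 177392697, minus strand, GRCh38) had 109 and 117 CPM with SAMD9 and 106 and 98.5 CPM with empty vector. Both SAMD9 values were above both empty vector values, but the log2 change of 0.14 (SE 0.07) did not pass (edgeR adjusted p = 0.159), and it was -0.05 under library totals. KEAP1 had 65.5 and 67.2 CPM with SAMD9 and 68 and 70.9 CPM with empty vector, a log2 change of -0.07 (SE 0.07, edgeR adjusted p = 0.569), and was called lower only under library totals (-0.25). MAFG, the small MAF partner, had a log2 change of 0.11 (SE 0.06, adjusted p = 0.244). Of the exonic bases of NFE2L2, 16.6% also belong to a gene listed on the same strand (ENSG00000213963), which had 24 to 57 counts per library.

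The genes that feed glutathione synthesis held the falls with the lowest p. SLC7A11 encodes the cystine transporter subunit xCT, which brings in the cystine that limits glutathione synthesis. On chromosome 4 (138164097 to 138242349, minus strand), it had 261 and 242 CPM with SAMD9, against 404 and 375 CPM with empty vector. The groups did not overlap, and the level with SAMD9 was 0.646 of that with empty vector (edgeR adjusted p = 2.5e-08). GCLC, the catalytic subunit of glutamate-cysteine ligase, the first enzyme of the pathway, had 113 and 103 CPM with SAMD9, against 148 and 148 CPM with empty vector. It lies on chromosome 6 (53497341 to 53616970, minus strand), and its level fell to 0.73 of the empty vector level (edgeR adjusted p = 1.6e-05). The partner subunit was not called: GCLM, which modifies the activity of GCLC, had 160.3 and 157 CPM with SAMD9 and 143 and 156 CPM with empty vector, a log2 change of 0.09 (SE 0.06, adjusted p = 0.361), and -0.10 under library totals. Neither GSR, the glutathione reductase gene (-0.10, SE 0.06, adjusted p = 0.216), nor GPX2, a glutathione peroxidase gene (0.13, SE 0.08, adjusted p = 0.274), was called. The groups did not overlap for GSR, which was called lower under library totals (-0.29) and with upper quartile scaling (-0.16). GPX2 was at 206 CPM in SAMD9 replicate 1 and at 162 CPM in SAMD9 replicate 2, so the replicates lay further apart than the groups, and its direction was set by which SAMD9 library was kept: 0.29 without SAMD9 replicate 2, where it was called higher, and -0.05 without SAMD9 replicate 1.

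Ratios between genes of one library do not depend on the scaling of libraries. The pairs were chosen after the values had been seen and are given as a description. The RPKM of GCLC was 0.452 and 0.42 of that of GCLM in the SAMD9 libraries, against 0.667 and 0.607 in the empty vector libraries. For SLC7A11 over GCLM the ratios were 0.914 and 0.869 with SAMD9 and 1.59 and 1.35 with empty vector. The 2 genes that fell thus shifted against GCLM by -0.55 and -0.72 on the log2 scale.

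**Figure D3:**
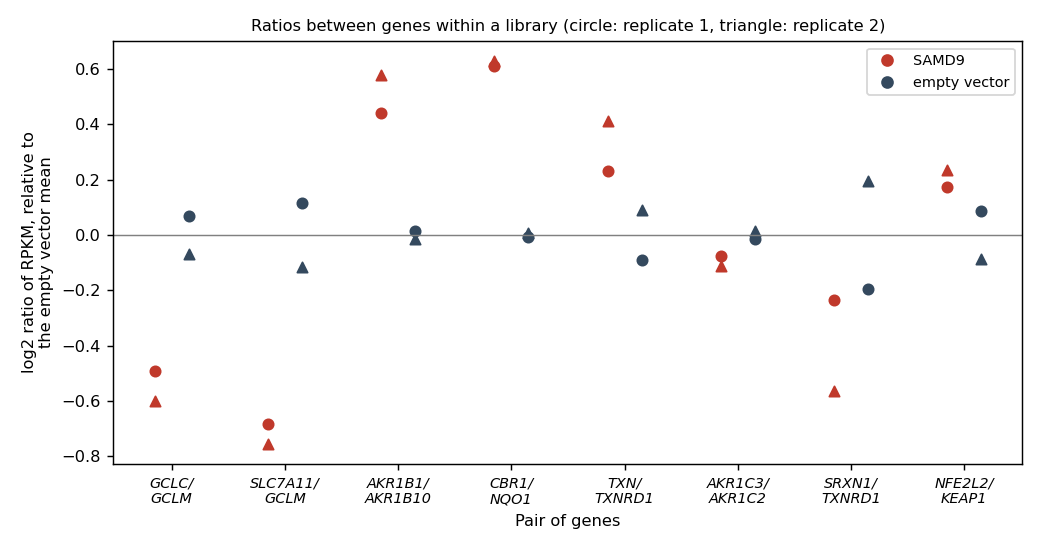
Log2 ratio of RPKM for 8 pairs of genes in each library, relative to the empty vector mean of the pair; red symbols are SAMD9 and dark symbols empty vector, with circles for replicate 1 and triangles for replicate 2. The SAMD9 libraries lie below the empty vector libraries for GCLC and SLC7A11 over GCLM and above them for AKR1B1 over AKR1B10 and CBR1 over NQO1. The groups do not overlap in any of the 8 pairs, which were chosen after the values had been seen, and the shift is smaller for AKR1C3 over AKR1C2, at -0.09.

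The thioredoxin branch held 1 rise and 1 fall. TXN, the thioredoxin gene (chromosome 9, 110243811 to 110256640, minus strand), had 174 and 191 CPM with SAMD9, against 150.2 and 153 CPM with empty vector. Its rise of 1.2-fold (edgeR adjusted p = 0.00349) kept its sign under library totals (0.08), but was not called there (adjusted p = 0.386) or without SAMD9 replicate 2. SRXN1, which restores hyperoxidised peroxiredoxins, had 15.1 and 11.7 CPM with SAMD9, against 16.8 and 19.8 CPM with empty vector, from 563 and 334 counts with SAMD9 and 525 and 662 counts with empty vector. It fell to 0.735 of the empty vector level (edgeR adjusted p = 0.0183), and the call ended without SAMD9 replicate 2 or without empty vector replicate 2, the libraries with its lowest and highest values. The same-strand overlap named above applies to this fall too. TXNRD1, thioredoxin reductase and one of the most abundant members, had 1834 and 1782 CPM with SAMD9 and 1984 and 1786 CPM with empty vector, overlapping ranges (log2 fold change -0.06, SE 0.05, adjusted p = 0.454). PRDX1, a peroxiredoxin that uses thioredoxin, had a log2 change of 0.02 (SE 0.06, adjusted p = 0.879). Of the exonic bases of PRDX1, 24.9% are shared with MMACHC on the other strand.

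None of the 4 members for NADPH supply was called. NADPH is the reductant for both the glutathione and the thioredoxin systems. The pentose phosphate enzymes PGD, TKT and TALDO1 and malic enzyme ME1 had log2 fold changes between -0.09 and 0.13, with SE from 0.05 to 0.07. PGD had 887 and 899 CPM with SAMD9 and 800.3 and 851 CPM with empty vector. TALDO1 had 260.1 and 281 CPM with SAMD9 and 236 and 259 CPM with empty vector. The groups did not overlap for either, yet the adjusted p was 0.123 for PGD and 0.156 for TALDO1, and both had negative values under library totals (-0.08 and -0.06). TKT, at 1184 and 1181 CPM with SAMD9, lay between the empty vector libraries at 1127 and 1265 CPM.

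Among the aldo-keto reductases, which reduce aldehydes and ketones with NADPH, 1 member rose and 1 fell. AKR1B1, aldose reductase (chromosome 7, 134442350 to 134459284, minus strand), had 1141 and 1206 CPM with SAMD9, against 822 and 884 CPM with empty vector. It rose 1.38-fold (edgeR adjusted p = 5.89e-07) with no overlap between the groups. AKR1B10, on the same chromosome (134527592 to 134541408, plus strand), had 1399 and 1347 CPM with SAMD9 and 1355 and 1490.1 CPM with empty vector, a log2 change of -0.05 (SE 0.05, adjusted p = 0.544). The RPKM of AKR1B1 was 0.389 and 0.427 of that of AKR1B10 with SAMD9 and 0.289 and 0.283 with empty vector. AKR1B10 has 30.7% of its 31-mers in common with other genes (18.8% with AKR1B15), and AKR1B1 has 13.9%. The levels of both are thus uncertain where shared reads were set aside. AKR1C3 (chromosome 10, 5035354 to 5107686, plus strand), which reduces prostaglandins and steroids, had 684 and 649 CPM with SAMD9, against 729.8 and 817 CPM with empty vector. It fell to 0.862 of the empty vector level (edgeR adjusted p = 0.00825), and the call ended without SAMD9 replicate 2 or without empty vector replicate 2. AKR1C1 and AKR1C2 had log2 fold changes of -0.14 (SE 0.07, adjusted p = 0.122) and -0.12 (SE 0.05, adjusted p = 0.107). Neither was called, but the groups did not overlap for either. Both were called lower under library totals (-0.33 and -0.31) and with upper quartile scaling (-0.21 and -0.18). The RPKM ratio of AKR1C3 to AKR1C2 was 0.808 and 0.787 with SAMD9 and 0.843 and 0.859 with empty vector.

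The largest rise of the programme was that of CBR1, a carbonyl reductase that acts on quinones and prostaglandins. On chromosome 21 (36069941 to 36073166, plus strand), it had 63.7 and 65.4 CPM with SAMD9, against 38.2 and 39.7 CPM with empty vector. The replicates lay close together and far from the other group, and the rise was 1.66-fold (edgeR adjusted p = 2.03e-07). CBR1-AS1, which covers 18.9% of its exonic bases on the other strand, had 18 and 0 counts with SAMD9 and 3 and 4 with empty vector, against 1195 to 2376 counts of CBR1. The neighbouring paralog CBR3, named after its value was seen, rose 2.24-fold, at 13 and 13 CPM with SAMD9 and 5.43 and 6.16 CPM with empty vector (edgeR adjusted p = 2.77e-06). Of the 31-mers of CBR1, 1.2% also occur in CBR3. ALDH1A1 had 5316 and 5495 CPM with SAMD9 and 4817 and 4991 CPM with empty vector, a rise of 1.1-fold (edgeR adjusted p = 0.0181), which read -0.05 under library totals and was not called with upper quartile scaling or without either SAMD9 library. NQO1 had 891 and 902 CPM with SAMD9 and 819.7 and 845 CPM with empty vector. The groups did not overlap, but the log2 change of 0.11 (SE 0.05) did not pass (adjusted p = 0.135), and it was -0.08 under library totals. ALDH3A1, an aldehyde dehydrogenase gene (-0.10, SE 0.07, adjusted p = 0.357), EPHX1, microsomal epoxide hydrolase (0.11, SE 0.06, adjusted p = 0.217), and PIR, the iron-binding nuclear protein pirin (0.03, SE 0.09, adjusted p = 0.879), were not called.

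**Figure D4:**
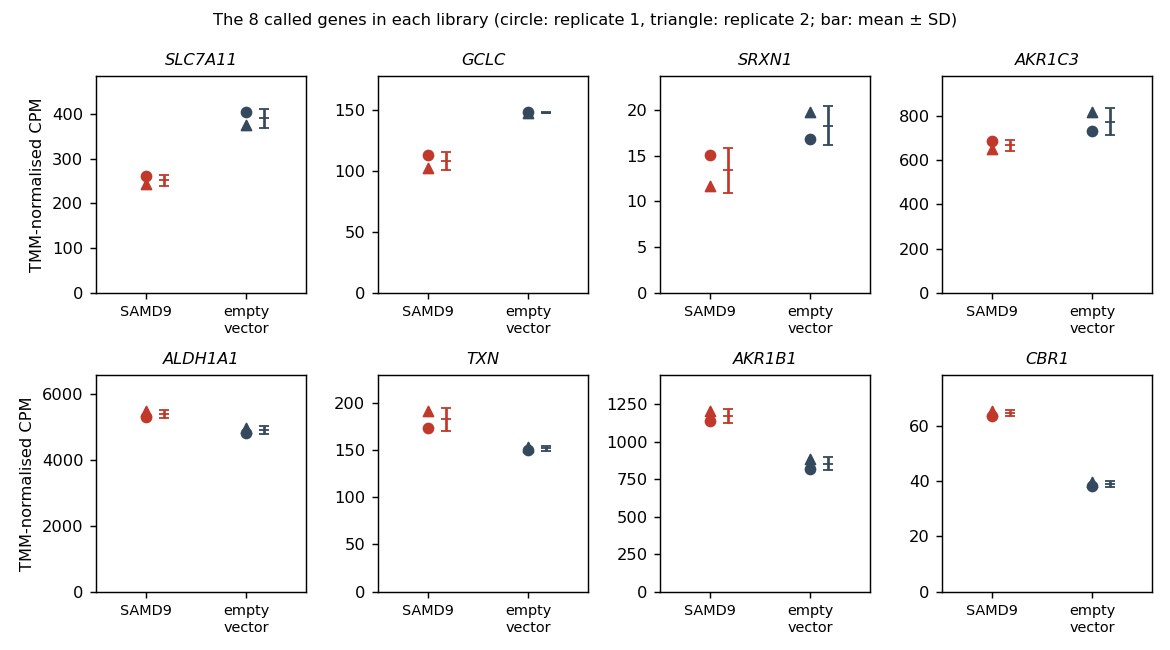
TMM-normalised CPM of the 8 called genes in each library, with SAMD9 left of empty vector, circles for replicate 1, triangles for replicate 2 and bars for the mean ± SD (n = 2). SLC7A11, GCLC, SRXN1 and AKR1C3 are lower with SAMD9 and ALDH1A1, TXN, AKR1B1 and CBR1 higher, with no overlap of the groups in any of the 8 panels. The 8 genes were chosen by their calls in these same libraries, so the separation adds no support. Of all genes tested, 31.1% separated with SAMD9 higher and 30.9% with SAMD9 lower.

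Of the 31 genes, none of the 3 for conjugation and export (UGDH, ABCC2 and ABCC3) was called. UGDH, which makes the UDP-glucuronic acid used for glucuronidation, had 564 and 566 CPM with SAMD9 and 642 and 594 CPM with empty vector (log2 fold change -0.13, SE 0.06, adjusted p = 0.0906). The groups did not overlap for UGDH, and it was called lower under library totals (-0.32) and with upper quartile scaling (-0.20). The export pumps for conjugates ABCC2 and ABCC3 had log2 fold changes of 0.02 (SE 0.06, adjusted p = 0.852) and 0.06 (SE 0.05, adjusted p = 0.454), and the groups overlapped for both. OSGIN1, an oxidative stress induced growth inhibitor gene, had 65.2 and 66 CPM with SAMD9 and 70.4 and 73.7 CPM with empty vector (-0.14, SE 0.07, adjusted p = 0.188). Its groups did not overlap either, and OSGIN1 was called lower under library totals (-0.33) and with upper quartile scaling (-0.20). A p that misses the threshold does not show that a gene was equal in both groups. Over the 23 genes not called, the estimates ± 2 SE reached from -0.28 to 0.30 on the log2 scale after TMM. This range leaves out the choice of scaling: under library totals the estimate for AKR1C1 alone was -0.33.

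Other NRF2 targets, outside the 31 genes, moved in both directions. Of 38 such genes 36 could be tested, and 12 were called higher and 5 lower, with a median log2 change of 0.09, where 15.3% of all genes were called higher and 12.2% lower and the median of all genes was -0.01. TSKU, a secreted regulator of Wnt and TGF-beta signalling, rose 2.26-fold, with 330.1 and 359.8 CPM in the SAMD9 libraries and 148 and 157 CPM in the empty vector libraries. HMOX1 encodes an enzyme that degrades heme, and the gene is induced by NRF2 and repressed by BACH1. HMOX1 had 464 and 500.3 CPM with SAMD9 and 276 and 227 CPM with empty vector, a 1.92-fold rise. The third rise by p was that of NMRAL2P, a pseudogene transcript, at 19.1 and 21.2 CPM with SAMD9 and 7.83 and 8.37 CPM with empty vector. The falls with the lowest p were those of the exporter gene ABCC4 (-0.40, SE 0.07), the nuclear receptor gene NR0B1 (-0.83, SE 0.16) and the cytochrome P450 gene CYP4F3 (-0.48, SE 0.14). CYP4F3 shares 20.8% of its 31-mers with other genes, and its call ended without empty vector replicate 2. Under library totals 5 of these 36 genes were called higher and 10 lower, where 9.96% of all genes were called higher and 28.5% lower, and both HMOX1 and TSKU remained above 0 (0.75 and 0.99).

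Genes of NRF2's partners, competitors and turnover held larger fold changes than any of the 31 genes. Of 18 listed 17 could be tested, and 6 were called higher and 2 lower, with a median of 0.11, beside the same 15.3% and 12.2% of all genes. Under library totals 4 were called higher and 6 lower, beside 9.96% and 28.5% of all genes. NFE2L3, a related CNC transcription factor gene, had 71 and 86.4 CPM with SAMD9, against 15.7 and 15.1 CPM with empty vector, a 5.11-fold rise (edgeR adjusted p = 1.1e-14). MAFF, a small MAF gene, had 96.1 and 96.8 CPM with SAMD9, against 40 and 38.7 CPM with empty vector, a 2.45-fold rise (edgeR adjusted p = 3.26e-12). BACH1, a repressor that competes with NRF2 for the same elements, had 87.7 and 84.4 CPM with SAMD9 and 49.4 and 41.9 CPM with empty vector, a 1.89-fold rise (edgeR adjusted p = 8.89e-09). The small MAF gene MAFK, named after its value was seen, had a log2 change of 0.33 (SE 0.06, adjusted p = 0.000217). The falls were those of CUL3, the scaffold of the ligase that KEAP1 serves, at 58 and 48.9 CPM with SAMD9 and 72 and 69.2 CPM with empty vector (-0.40, SE 0.08, not called without SAMD9 replicate 2), and of GSK3B, a kinase that marks NRF2 for another ligase (-0.43, SE 0.07).

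The wider redox lists were mixed. Of 13 tested genes of the pentose phosphate pathway and NADPH supply outside the programme, 5 were called higher and 0 lower with TMM, but 0 higher and 3 lower under library totals, and all-gene shares are those given for the partners. Among the rises were ME2, a mitochondrial malic enzyme gene, with a log2 fold change of 0.35 (SE 0.08), and PGLS, the lactonase gene of the pathway, with 0.28 (SE 0.09). Neither was called under library totals, and the rise of PGLS also ended with upper quartile scaling and without SAMD9 replicate 1 or empty vector replicate 1, and that of ME2 without SAMD9 replicate 2. Of 26 tested glutathione and thioredoxin genes outside the programme, 4 were called higher and 3 lower, 26.9% in all, where 27.5% of all genes were called. SOD2, the mitochondrial superoxide dismutase gene, rose 5.35-fold, at 463 and 513 CPM with SAMD9 and 90 and 92.4 CPM with empty vector, although ACAT2 and WTAP overlap it on the other strand. GLRX, glutaredoxin, rose 2.66-fold, at 78.7 and 86.2 CPM with SAMD9 and 31.8 and 30 CPM with empty vector. GPX3, an extracellular glutathione peroxidase gene, rose by 0.61 (SE 0.15) on the log2 scale, a call that ended without SAMD9 replicate 2. The falls of SLC7A5 (-0.16, SE 0.05), TXNRD2 (-0.29, SE 0.09) and CHAC1 (-0.35, SE 0.13) each ended as calls when either SAMD9 library was left out, those of SLC7A5 and TXNRD2 also without empty vector replicate 2, and that of CHAC1 also without empty vector replicate 1 and with DESeq2. Of the 26 genes, 3 were higher and 7 lower under library totals, beside 9.96% and 28.5% of all genes.

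**Figure D5:**
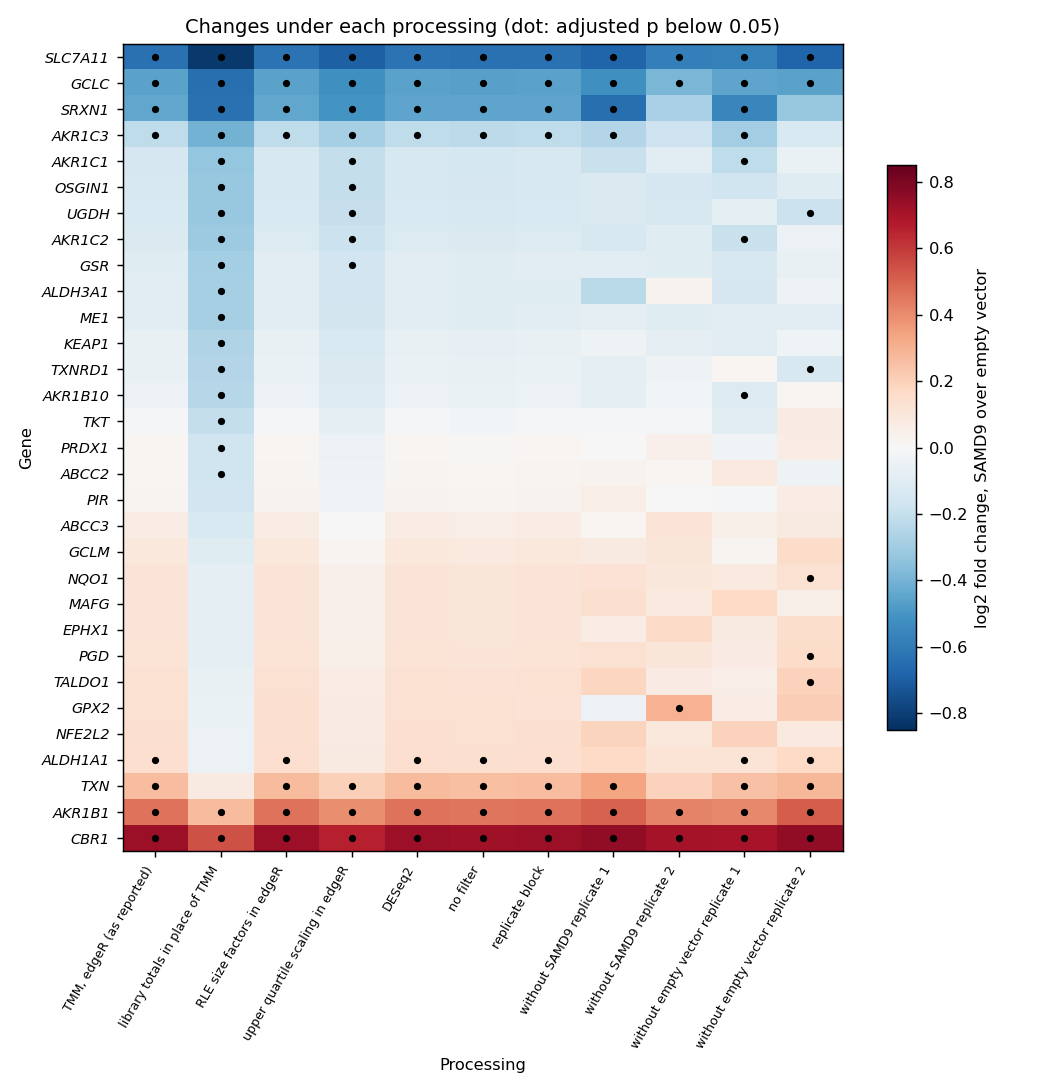
Log2 fold change of the 31 genes (rows) under the reported processing and 10 alternatives (columns), with blue for lower and red for higher with SAMD9 and a dot where the adjusted p is below 0.05. SLC7A11, GCLC, AKR1B1 and CBR1 carry a dot in every column, and under library totals 17 genes are called lower.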

How the data were processed

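RNA sequencing counts per gene were given for 4 libraries (2 SAMD9, 2 empty vector), grouped by sample title. The authors deposited raw counts, with CPM and RPKM computed from them; the deposited CPM equals the count over the library total, and the deposited RPKM equals CPM per kilobase of listed length. STAR 2.5.1a, featureCounts 1.4.6-p5 (Subread) and bcl2fastq are named, with GRCh38, in the submitters' processing notes. No source used here gives the strand setting, the annotation release or the treatment of shared reads. Ribosomal RNA had been depleted, per the labels. Even numbers made up 72.9% of the counts between 1 and 20 and 49.7% of those over 1000. The cause was not tested.

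Symbols were matched through a gene name table (54836 identifiers) or GENCODE 29. Counts were tested with edgeR 4.0.16 (R 4.3.3): filterByExpr (minimum 10, total 15), TMM (factors 0.941 and 0.932 for SAMD9, 1.069 and 1.066 for empty vector), glmQLFTest over all 19814 genes. An SE is the absolute log2 fold change over the square root of F. Alternatives were library totals, RLE, upper quartile, DESeq2 1.42.0, no filter, a replicate block and each library left out. Scripts were tested on simulated data. Chi-square per degree of freedom between replicates was 5 for SAMD9 and 9.35 for empty vector, so each library was counted as 1 sample.

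The members and lists were chosen with earlier results of these data known. Named outside the members were, by rule, the 3 called genes of each list with the lowest p in each direction. One gene named by this rule is not reported here. No test was made over a list.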

Additional observations from a re-analysis of the deposited data

How the results depend on the processing

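SLC7A11, GCLC, AKR1B1 and CBR1 kept their calls in all 10 alternatives. No member changed its call with RLE size factors, DESeq2, no filter or the replicate block. Library totals gave 2 members higher and 17 lower, and 1974 genes higher and 5653 lower in all; upper quartile scaling gave 3 and 9 members. With one library left out, 3 to 7 members were higher and 2 to 7 lower; of all genes 2295 to 2851 were higher and 1588 to 2041 lower, fewest without SAMD9 replicate 2. The scaling shifts all values by construction; for single libraries the cause was not tested. The median member percentile was 97.8 by CPM and 97.9 among genes that passed the filter, against 98.5 as reported.

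Same-numbered libraries' deviations correlated at 0.00416 over 19814 genes, and with the replicate block 4 members were higher and 4 lower, and 2914 and 2330 of all genes, so the numbers were not treated as pairs.

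Under library totals the log2 fold change turned negative for NFE2L2 (-0.051), MAFG (-0.080), GCLM (-0.10), GPX2 (-0.056), PRDX1 (-0.17), PGD (-0.075), TALDO1 (-0.062), NQO1 (-0.081), ALDH1A1 (-0.048), EPHX1 (-0.078), PIR (-0.16), ABCC2 (-0.17) and ABCC3 (-0.13). With upper quartile scaling it did for PRDX1 (-0.048), PIR (-0.039), ABCC2 (-0.046) and ABCC3 (-0.0031). With one library left out, GPX2 ranged from -0.047 to 0.29, PRDX1 from -0.028 to 0.064, TXNRD1 from -0.13 to 0.017, TKT from -0.097 to 0.070, AKR1B10 from -0.12 to 0.019, ALDH3A1 from -0.23 to 0.027, PIR from -0.0081 to 0.061 and ABCC2 from -0.044 to 0.086.

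For the other lists, library totals gave 4 higher and 6 lower of NRF2 partners, 5 and 10 of other NRF2 targets, 3 and 7 of glutathione and thioredoxin genes, 0 and 3 of NADPH genes and 0 and 6 of aldo-keto reductase and aldehyde dehydrogenase genes. Upper quartile scaling gave 2 NADPH genes higher and 1 lower. Among all 19814 genes, library totals called 9.96% higher and 28.5% lower, and upper quartile scaling called 2506 genes higher and 3258 lower. With one library left out the ranges were 5 to 6 and 1 to 3 for partners, 8 to 12 and 3 to 5 for other targets, 2 to 6 and 0 to 2 for glutathione and thioredoxin genes, 2 to 6 and 0 to 1 for NADPH genes, and 0 to 1 and 0 to 2 for the last list.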

Other observations

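Aldo-keto reductase and aldehyde dehydrogenase genes outside the programme had 17.6% of their tested members called, where 27.5% of all genes were. Of 19 listed genes 17 could be tested, and 1 was called higher and 2 lower, with a median log2 fold change of -0.08. ALDH2, the mitochondrial aldehyde dehydrogenase gene, had 38.5 and 33.7 CPM with SAMD9 and 29.1 and 27 CPM with empty vector, a 1.29-fold rise (edgeR adjusted p = 0.00705) that was not called under library totals or without SAMD9 replicate 1. ALDH3A2, a fatty aldehyde dehydrogenase gene, had 189.5 and 175 CPM with SAMD9 and 218 and 228 CPM with empty vector, and fell to 0.818 of the empty vector level (edgeR adjusted p = 0.00117). ALDH1B1 fell to 0.843 of that level, with 60.1 and 59.2 CPM with SAMD9 and 68.2 and 73.3 CPM with empty vector (edgeR adjusted p = 0.0176). Without SAMD9 replicate 2 neither of these falls was called, that of ALDH1B1 also ended without SAMD9 replicate 1 or empty vector replicate 2, and 0 to 2 genes of this list were lower when one library was left out.

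Members of one chemical family, one complex or one branch of the programme were not always called alike. GCLC was called lower and GCLM was not called, AKR1B1 was called higher and AKR1B10 was not called, and TXN was called higher where TXNRD1 was not called. The differences within these pairs were not tested, because the pairs were chosen after their values were seen, and by that choice their ratios separate. For TXN over TXNRD1 the within-library ratios of RPKM were 0.557 and 0.632 with SAMD9 and 0.445 and 0.506 with empty vector.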
